A study of Mus musculus with 2 samples.

Results

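To describe TGF-beta, BMP and activin signalling in CPEB1-depleted cells, 47 genes of this pathway were followed in 1 array of siCPEB1-transfected and 1 array of siControl-transfected Neuro2a cells. The genes were listed by name, as ligands, receptors, antagonists, Smad proteins and target genes, and every probe set that the platform annotation assigns to 1 of them alone was taken. On the arrays, 46 of the 47 genes were represented, among 18159 genes in all, and they had 102 of the 45037 probe sets. Gdf15, a distant member of the ligand family, had none in the annotation used here, alone or together with another gene. The 1 probe set left out for naming several genes was one of Acvr2a. Neuro2a is a mouse neuroblastoma line, and neuroblastoma is a tumour of the sympathetic lineage. The siCPEB1 cells had received siRNA against the coding region of Cpeb1 and the siControl cells a control siRNA, both for 24 h, and both arrays were made from 100 ng of total RNA. Each condition is 1 culture of 1 cell line on 1 array, so no replicate spread and no p-value can be given, and every ratio describes these 2 arrays. RNA was taken from whole cultures, in which fewer expressing cells and less RNA per cell cannot be told apart.

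Ligands of the TGF-beta superfamily are secreted dimers that bring together type 2 and type 1 receptor kinases. The type 1 receptors phosphorylate Smad proteins, which join Smad4 and enter the nucleus. TGF-beta and activin receptors act mainly on Smad2 and Smad3, whereas BMP receptors act mainly on Smad1, Smad5 and Smad9. Secreted binding proteins, a decoy receptor and the inhibitory Smads limit the signal. In the embryo, BMPs from the dorsal aorta induce sympathetic neurons from neural crest cells. CPEB1 binds a U-rich element in the 3′ end of mRNAs and controls their polyadenylation and translation.

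Each probe set has a linear signal on each array, and the ratio is log2 of siCPEB1 over siControl with the difference of the array medians taken off (log2 0.04). The median signal was 21.6 in siCPEB1 and 21.0 in siControl. A probe set was counted when 1 of its signals was at or above the array median and its other signal at or above the 25th percentile. Because the values used here came without detection calls, a signal below the array median is treated as uncertain, and "at least" marks a fold computed with that signal set at the median. Cpeb1 itself, the target of the siRNA, had 38.5 in siCPEB1 and 302 in siControl, 8.08-fold lower. Between probe sets of the same gene, the ratios had a pooled SD of 0.37 over all counted probe sets and 0.30 over those at the median in both arrays. The log2 ratios of the 18 hybridization controls averaged -0.17 ± 0.075 (SD).

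Of the 46 genes, 36 had a counted probe set. With 1 probe set a gene, 6 of the 36 were higher in siCPEB1 by more than 2-fold (16.7%, against 4.56% of all 11546 genes) and 2 were lower (5.56%, against 3.91%). The members had been listed with earlier results of these arrays known, so the shares describe the list and do not test it. The 6 were the ligand genes Tgfb3, Bmp5 and Inhbb, the receptor gene Bmpr1b, the decoy receptor gene Bambi and the target gene Id4, and the lower ones were Bmp7 and Tgfbi. Of these 8, Tgfb3, Bambi, Id4 and Tgfbi reached the array median in both arrays. Bmp5, Inhbb and Bmpr1b were counted through the siCPEB1 array and Bmp7 through the siControl array, and a gene that passes in this way has a difference built into its selection. Among genes at the median in both arrays, 3 of 32 genes were higher (9.38%, against 2.69% of all genes) and 1 was lower (3.12%, against 3.17%). Past 1.5-fold, 8 genes were higher (22.2%, against 11.9%) and 3 were lower (8.33%, against 12.1%), the 8 named genes together with Tgfb2, Smad7 and Id1. The 36 genes had a median log2 ratio of 0.16, against 0.01 for all genes, and of 0.08 for the 32 genes at the median in both arrays. By probe set, 12 of 75 were higher and 5 were lower, while 4.1% and 4.54% of all counted probe sets were. Of the 12 higher, 5 had a siControl signal below the median, so their direction is built in. Of the 5 lower, 4 were probe sets of Tgfbi, which are not separate members.

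**Figure D1:**
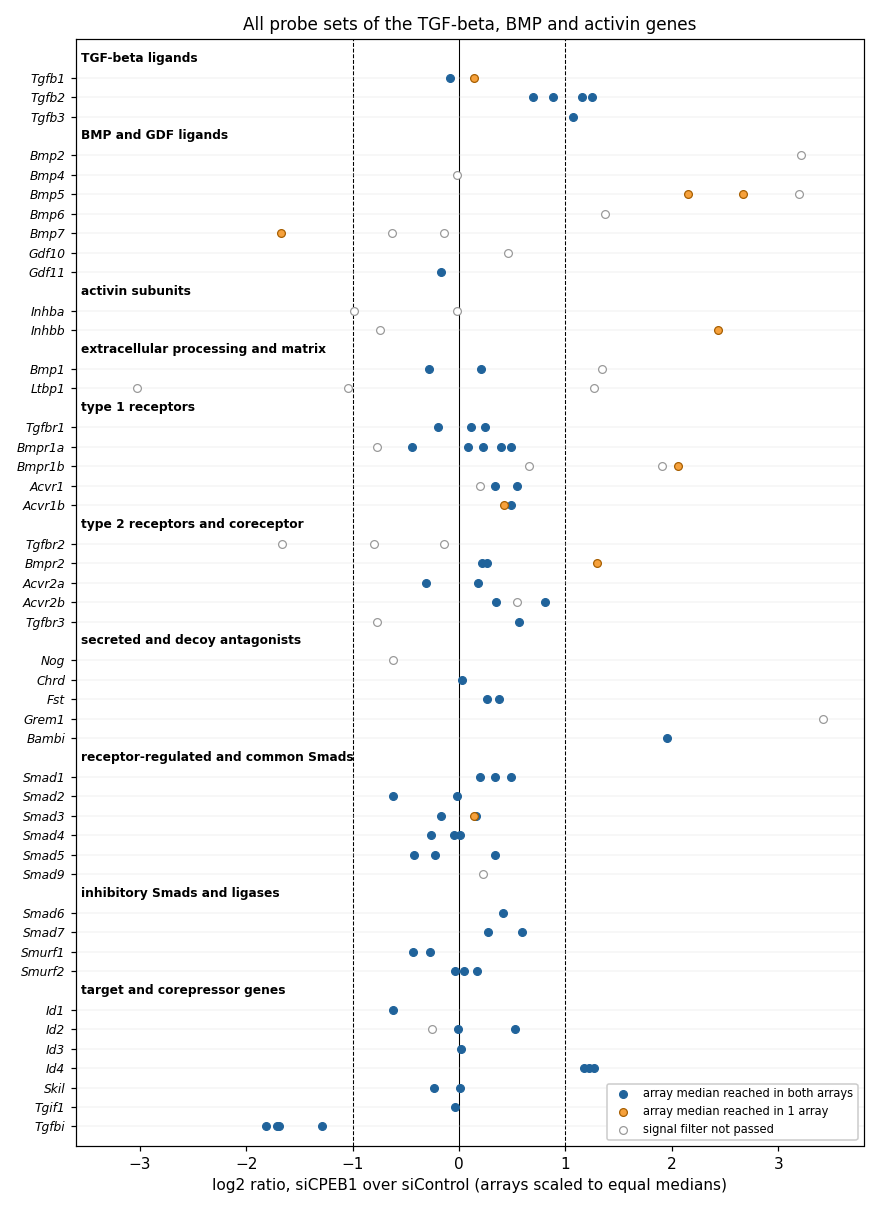
Log2 ratio of siCPEB1 over siControl (x axis) for each of the 102 probe sets, with genes in rows by role, dashed lines at 2-fold and point colour for the signal filter. Tgfb2, Bambi and Id4 lie to the right and the 4 probe sets of Tgfbi to the left with signals at the median in both arrays, while the Smad and most receptor genes lie between the lines.

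**Figure D2:**
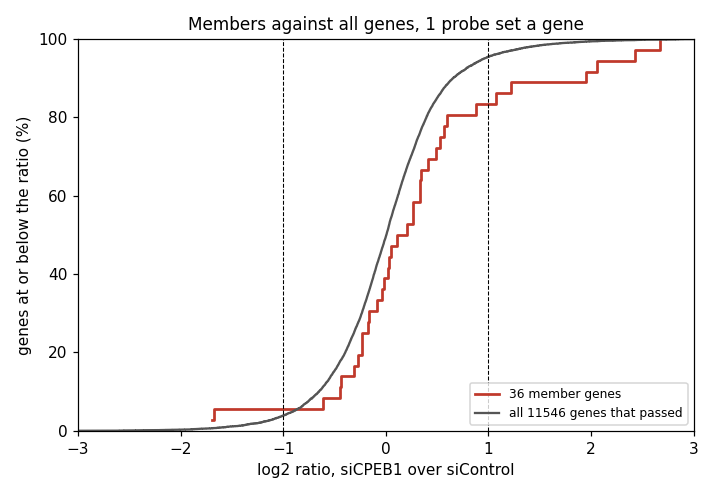
Share of genes (y axis, percent) at or below each log2 ratio of siCPEB1 over siControl (x axis) for the 36 member genes and all 11546 genes with a counted probe set. The curve of the members runs to the right of that of all genes over most of its range, with a median of 0.16 against 0.01, and lies above it at the lowest ratios, where Tgfbi and Bmp7 are, and beyond 2.67, the ratio of Bmp5, the highest member.

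Among the TGF-beta ligand genes, 2 of 3 were higher in siCPEB1 past 1.5-fold, beside 11.9% of all genes. At the probe sets chosen, only Tgfb3 was past 2-fold, beside 4.56% of all genes. Tgfb2 encodes a ligand that needs the coreceptor betaglycan for efficient binding to its receptor. Its 4 probe sets gave signals of 678, 597, 354 and 121 in siCPEB1, against 358, 261, 145 and 72.7 in siControl. All 4 were brighter in siCPEB1, by 1.84-, 2.23-, 2.38- and 1.62-fold, and the brightest, which stands for the gene in the counts, lay just inside 2-fold. The mean log2 ratio of the 4 probe sets was 0.99 ± 0.25 (SD over probe sets, which share the same RNA). Tgfb3, a ligand whose receptor is the same, had 83.2 in siCPEB1 and 38.5 in siControl at its 1 probe set, 2.10-fold higher. Tgfb1, the most widely expressed of these ligands, had 78.2 in siCPEB1 and 80.7 in siControl at the probe set chosen, and 22.6 and 19.9 at the other, so its log2 ratios of -0.08 and 0.14 lay within the spread between probe sets.

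The promoter of Tgfb2 is shown because all probe sets of this gene were brighter in siCPEB1. The 250 bases before its RefSeq start lie at chr1:186705990-186706239 of GRCm38.p6 on the minus strand and are given 5′ to 3′. Capitals mark CAGAC, the core of many Smad-binding elements, and a TATA box (TATAAA).
Tgfb2: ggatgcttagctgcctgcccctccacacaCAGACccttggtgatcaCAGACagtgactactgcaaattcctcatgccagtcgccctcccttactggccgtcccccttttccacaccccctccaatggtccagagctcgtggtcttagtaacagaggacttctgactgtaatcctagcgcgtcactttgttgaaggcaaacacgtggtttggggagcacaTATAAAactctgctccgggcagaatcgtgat
CAGAC occurred at bases -221 to -217 and -204 to -200 counted from the start, and TATAAA at -31 to -26. Of all 32851 promoters in the table, 42.2% hold CAGAC on either strand in the same window and 12.4% hold TATAAA, so the first match is common. A match describes the letters alone.

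The BMP and GDF ligand genes were dim. Of 7 on the arrays, Bmp2, Bmp4, Bmp6 and Gdf10 had no counted probe set, with signals between 3.48 and 12.1 in siCPEB1 and between 0.536 and 11.9 in siControl, and Gdf11, a ligand that acts through activin receptors, had 22.4 and 24.4. Bmp5, a BMP of the same subgroup as Bmp6 and Bmp7, had 68.2 in siCPEB1 and 10.4 in siControl at its brightest probe set. This is at least 3.15-fold higher. A further probe set of Bmp5 gave 31.7 in siCPEB1 and 6.96 in siControl, at least 1.46-fold higher, and the dimmest gave 11.2 and 1.19, both below the array medians. Thus, Bmp5 was brighter in siCPEB1 at all 3 probe sets, and all 3 siControl signals were below the median. Bmp7 ran the other way. It had 10.6 in siCPEB1 and 32.7 in siControl at 1 probe set, at least 1.56-fold lower, and below 10 on both arrays at the other 2.

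Activins are dimers of the inhibin beta subunits. Inhbb, the subunit of activin B, had 34.3 in siCPEB1 and 6.17 in siControl at 1 probe set, at least 1.58-fold higher. Its other probe set was dim on both arrays, with 4.24 in siCPEB1 and 6.88 in siControl, and did not repeat this direction. Inhba, the subunit of activin A, was not counted, with 15.6 in siCPEB1 and 15.4 in siControl at its brighter probe set. Bmp1, which despite its name is a metalloprotease that cleaves the BMP antagonist chordin and procollagens, had 60.1 in siCPEB1 and 50.5 in siControl (log2 ratio 0.21, and -0.28 at its other counted probe set). Ltbp1, which holds latent TGF-beta in the matrix, stayed below 10 at its 3 probe sets on both arrays.

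Of the 5 type 1 receptor genes, Bmpr1b alone was past 2-fold, beside 4.56% of all genes higher and 3.91% lower. This gene was counted through the siCPEB1 array alone, which builds in its direction. Bmpr1b is a receptor for BMPs and GDFs with a narrower expression than Bmpr1a. It had 79.7 in siCPEB1 and 18.6 in siControl at the counted probe set, at least 3.68-fold higher. The other 2 probe sets gave 15.9 and 14.8 in siCPEB1 and 9.77 and 3.84 in siControl, brighter in siCPEB1 but below the medians. Bmpr1a, the broadly expressed BMP receptor, had log2 ratios from -0.44 to 0.48 at its 5 counted probe sets. The brightest, chosen for the counts, had 725 in siCPEB1 and 958 in siControl and was the 1 below 0, while the other 4 were above 0. The TGF-beta receptor Tgfbr1 had 831 in siCPEB1 and 749 in siControl, a log2 ratio of 0.11. Acvr1 and Acvr1b, receptors for BMPs and for activins, had log2 ratios of 0.33 and 0.49 at the probe sets chosen, and 0.55 and 0.43 at their other counted ones.

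The chosen probe sets of the type 2 receptor genes were all within 2-fold, where 4.56% of all genes were higher and 3.91% lower. Bmpr2, the BMP type 2 receptor, had 819 in siCPEB1 and 665 in siControl, a log2 ratio of 0.26. Its dimmest probe set gave 28.1 in siCPEB1 and 11.2 in siControl, at least 1.3-fold higher, while the third had 56.7 and 47.4. The 3 ratios span more than 2-fold only through the siControl signal of 11.2, which is below the median. The activin receptors Acvr2a and Acvr2b had log2 ratios of -0.31 and 0.34, and of 0.18 and 0.81 at their other counted probe sets. Tgfbr2, the type 2 receptor for TGF-beta, was below the array median at all 3 probe sets on both arrays, with no signal above 17.2. Tgfbr3, which encodes betaglycan, had 47.3 in siCPEB1 and 31.2 in siControl (log2 ratio 0.56), and 4.69 and 7.77 at its other probe set.

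**Figure D3:**
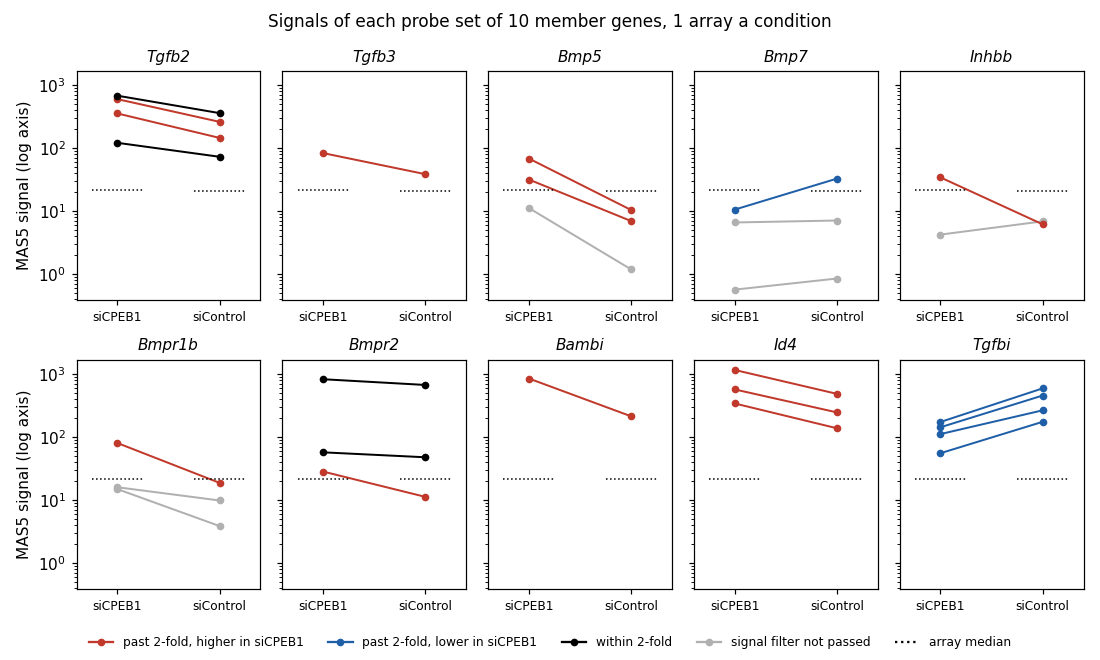
Signal of each probe set (y axis, log scale) in siCPEB1 and siControl (x axis), joined by a line, for the 10 genes with a counted probe set past 2-fold, with dotted lines at the array medians. The lines of Tgfb2, Tgfb3, Bambi, Id4 and Tgfbi lie above the medians at both ends, whereas those past 2-fold of Bmp5, Bmp7, Inhbb, Bmpr1b and Bmpr2 cross a median.

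The largest ratio among members at the median in both arrays was that of Bambi. BAMBI is a membrane protein that resembles a type 1 receptor without the kinase domain and is known as a target gene of BMP and TGF-beta signals that dampens them. Bambi had 841 in siCPEB1 and 212 in siControl at its 1 probe set, 3.87-fold higher (log2 ratio 1.95). The secreted antagonists differed less. Fst, which encodes the activin-binding follistatin, had 304 in siCPEB1 and 246 in siControl, and log2 ratios of 0.27 and 0.38 at its 2 probe sets. Chrd, which encodes chordin, had 33.4 in siCPEB1 and 31.8 in siControl. Nog and Grem1, which encode the BMP antagonists noggin and gremlin, were not counted, with 0.594 and 10.3 in siCPEB1 and 0.887 and 0.938 in siControl.

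The counted Smad genes stayed within 2-fold, as did most genes, since 4.56% of all genes were higher past 2-fold and 3.91% lower. Smad1, a transducer of BMP signals, had 1817 in siCPEB1 and 1401 in siControl at its brightest probe set, and log2 ratios of 0.33, 0.49 and 0.19 at its 3 probe sets, all above 0. The log2 ratios of the other transducers at the probe sets chosen were -0.02 for Smad2, -0.17 for Smad3, -0.27 for the common partner Smad4 and -0.23 for Smad5. These ratios, and that of Smad1 at its brightest probe set, were smaller in size than the SD of 0.37 between probe sets. At its other probe set Smad2 had 109 in siCPEB1 and 163 in siControl (log2 ratio -0.62). The other log2 ratios were 0.14 and 0.16 for Smad3, 0.01 and -0.05 for Smad4, and -0.42 and 0.33 for Smad5. Smad9 was not counted, at 21.3 in siCPEB1 and 17.8 in siControl.

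Among the negative regulators inside the cell, the inhibitory Smads had ratios above 0 and the ligases did not share a direction. Smad7, which blocks type 1 receptors and is induced by the pathway it restrains, had 153 in siCPEB1 and 98.9 in siControl, 1.51-fold higher, and its dimmer probe set a log2 ratio of 0.28. Smad6, which acts mainly on BMP signals, had 80.4 in siCPEB1 and 58.7 in siControl (log2 ratio 0.41). Smurf1, a ubiquitin ligase for Smads and receptors, had 93.0 in siCPEB1 and 122 in siControl (log2 ratio -0.43, with -0.27 at the further probe set). Smurf2, its relative, had log2 ratios from -0.04 to 0.16 at 3 probe sets.

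The target genes split in direction. Id proteins bind basic helix-loop-helix factors without binding DNA and hold back differentiation, and Id1, Id2 and Id3 are classical early targets of BMP signals. Id4 had 1151, 565 and 338 at its 3 probe sets in siCPEB1, against 481, 244 and 137 in siControl. All 3 were past 2-fold and close to each other, at 2.33-, 2.25- and 2.41-fold higher, a mean log2 ratio of 1.22 ± 0.048 (SD over probe sets). Id1 lay on the other side, with 340 in siCPEB1 and 507 in siControl, 1.53-fold lower. Id2 had 183 in siCPEB1 and 123 in siControl at its brightest probe set (log2 ratio 0.53) and a log2 ratio of -0.01 at the other counted one. Id3 had 201 in siCPEB1 and 192 in siControl, a log2 ratio of 0.02. The ratios of the 4 Id genes thus lay on both sides of 0.

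Tgfbi encodes a secreted matrix protein that was named for its induction by TGF-beta. It had 172, 142, 111 and 55.0 at its 4 probe sets in siCPEB1, against 587, 452, 263 and 173 in siControl. All 4 were past 2-fold, at 3.51-, 3.27-, 2.45- and 3.24-fold lower, with signals above the median on both arrays and a mean log2 ratio of -1.63 ± 0.23 (SD over probe sets). Of the 4, 3 have names that mark possible cross-hybridization, and the specific one is that with 55.0 and 173. The corepressor genes Skil and Tgif1, which restrain Smad-driven transcription, had log2 ratios of -0.23 and -0.04, with 515 and 249 in siCPEB1 and 589 and 249 in siControl.

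The promoters of Id4 and Tgfbi are shown because these target genes differed in opposite directions at every probe set. Capitals mark CAGAC on either strand (GTCTG where it lies on the other strand) and GGCGCC, a GC-rich element bound by Smads of the BMP branch. The 250 bases before the start lie at chr13:48260866-48261115 for Id4 and at chr13:56609336-56609585 for Tgfbi, both on the plus strand of GRCm38.p6 in RefSeq.
Id4: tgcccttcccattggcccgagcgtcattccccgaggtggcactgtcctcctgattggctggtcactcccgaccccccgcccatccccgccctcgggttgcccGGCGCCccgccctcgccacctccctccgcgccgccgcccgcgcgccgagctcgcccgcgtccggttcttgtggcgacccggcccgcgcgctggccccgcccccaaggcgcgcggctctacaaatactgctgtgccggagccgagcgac
Tgfbi: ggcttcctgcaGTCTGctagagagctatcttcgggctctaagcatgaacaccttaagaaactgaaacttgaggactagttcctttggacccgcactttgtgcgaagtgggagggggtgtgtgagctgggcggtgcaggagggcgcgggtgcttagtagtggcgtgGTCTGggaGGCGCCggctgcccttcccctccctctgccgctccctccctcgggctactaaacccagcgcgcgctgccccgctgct
The window of Id4 held 1 GGCGCC, at -148 to -143, and no CAGAC. That of Tgfbi held 1 GGCGCC, at -77 to -72, and 2 CAGAC on the other strand, at -239 to -235 and -85 to -81. GGCGCC is in 9.59% of all promoter windows of this length, and 75.6% of the Id4 window and 62.4% of the Tgfbi window are G or C, against a median of 52.4%. The palindrome GTCTAGAC was in none of the 45 windows of the 34 member genes found in the table and in 0.167% of all windows.

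Where a gene had several probe sets, they often disagreed in sign. Of 24 members with 2 or more counted probe sets, 10 had only ratios above 0, 3 only ratios below 0 and 11 had both. The same counts over all genes were not computed, so nothing particular to the members can be read from them. Genes whose probe sets differed in sign had all of these ratios within 2-fold. The ratios of Id4, Tgfb2 and Tgfbi kept their sign at every probe set, whereas Tgfb3 and Bambi rest on 1 probe set each.

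To place the members among the rest of the pathway, 93 other genes of the superfamily, its regulators and its targets were listed, of which 84 were on the arrays and 47 were counted. Past 2-fold, 2 of these 47 were higher and 3 lower, beside 4.56% and 3.91% of all genes, so the higher ones were no more frequent than among all genes. This list, like that of the members, was drawn up with earlier results of these arrays known, so the contrast between them is no test. Their median log2 ratio was -0.01. Rgmb, a BMP coreceptor expressed in neurons, had 80.6 in siCPEB1 and 28.5 in siControl, 2.75-fold higher. Its other probe sets were too dim to be counted, and 4 of these 5 were brighter in siCPEB1. Bmper, a secreted BMP-binding protein, had 30.8 in siCPEB1 and 9.99 in siControl, at least 1.42-fold higher.

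The lower genes of this list were all dim in siCPEB1. Lefty1, an antagonist of Nodal, had 13.9 in siCPEB1 and 31.5 in siControl, at least 1.49-fold lower. Ccn2, a matrix-associated protein induced by TGF-beta, had 8.59 in siCPEB1 and 24.8 in siControl, at least 1.18-fold lower. Snai2, a transcriptional repressor of epithelial genes, had 9.20 in siCPEB1 and 23.7 in siControl at the probe set chosen, at least 1.13-fold lower, and 7.10 and 67.6 at the other, at least 3.21-fold lower. Of 8 counted target genes in the list, 3 had a ratio above 0 and 5 below.

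Among the regulators of Smads, counted probe sets of 1 gene differed most in Ppm1a, a phosphatase that acts on Smad2 and Smad3. This gene was singled out after its values were seen. The brightest probe set had 927 in siCPEB1 and 878 in siControl (log2 ratio 0.04), and 3 more had ratios between -0.02 and 0.22. The other 4 were past 2-fold lower, with 129, 51.8, 40.7 and 22.5 in siCPEB1 and 257, 186, 107 and 91.1 in siControl. The ubiquitin ligase gene Wwp1, also named after its values were seen, had 105 in siCPEB1 and 177 in siControl at the probe set chosen (log2 ratio -0.79) and log2 ratios of -1.77 and -1.22 at the other 2. Likewise, the kinase gene Hipk2 had 262 in siCPEB1 and 128 in siControl, a log2 ratio of 0.998 that was just within 2-fold.

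**Figure D4:**
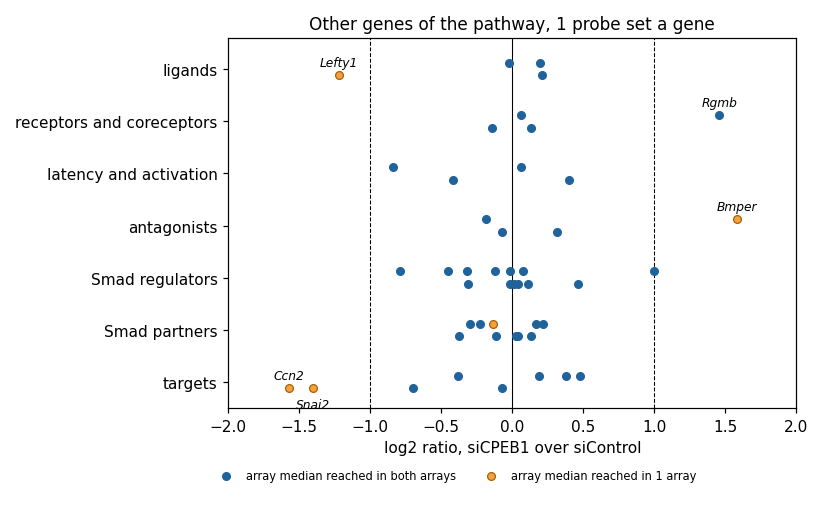
Log2 ratio of siCPEB1 over siControl (x axis) for 47 other genes of the pathway, 1 probe set a gene, in rows by role, with dashed lines at 2-fold and names for genes past them. Rgmb is the 1 gene past 2-fold with signals at the median in both arrays, and the regulators and partners of Smads lie within the lines.

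Several members are also expressed by fibroblasts and other stromal cells, so markers were read on the same arrays. Of 10 fibroblast markers, 5 were counted. Col1a2 was 7.11-fold higher, Acta2 and Pdgfrb were 3.89- and 3.72-fold lower, and the defining gene Col1a1 was below 10 on both arrays. Pdgfra and Fbln1 were within 2-fold, at log2 ratios of 0.58 and -0.61. The summed signal of the brightest probe sets was 1182 in siCPEB1 and 1543 in siControl for the fibroblast list, of which Fbln1 alone had 666 and 989. It was 581 and 143 for 9 haematopoietic markers, of which F13a1 alone had 458 and 46.2. For 6 endothelial markers it was 203 and 92.8, and for 7 glial markers 141 and 114. Past 2-fold, 2 of 3 counted haematopoietic markers and 1 of 2 endothelial ones were higher and none of either list was lower, beside 4.56% higher and 3.91% lower among all genes, and the 1 counted glial marker was within 2-fold. Of these higher markers, Tyrobp, with 22.8 in siCPEB1 and 9.62 in siControl, and Vwf, at least 3.59-fold higher, were counted through the siCPEB1 array alone, which builds in their direction. Ptprc, the pan-leukocyte marker, and Cdh5, the endothelial cadherin, were below the array medians on both arrays. The part of these markers in the ratios of the members was not tested. Of 12 sympathetic markers on the arrays, 11 were counted, 8 with a ratio above 0 and 3 with a ratio below 0. Of all genes, 50.5% had a ratio above 0. At the probe sets chosen, Isl1, Gata3 and Phox2a were past 2-fold higher and none was past 2-fold lower, beside 4.56% and 3.91% of all genes. The ratios below 0 were those of Ncam1 (-0.98), Gata2 (-0.53) and Stmn2 (-0.34), and 2 other probe sets of Ncam1 were past 2-fold lower, at -1.05 and -1.04. The list had a median log2 ratio of 0.93 and a summed signal of 15973 in siCPEB1 and 12078 in siControl. Of this list, Hand2 had 4033 in siCPEB1 and 3191 in siControl, and Phox2a had 1443 and 565. Dbh had 53.1 and 26.2 at the probe set chosen, and 169 and 96.3 at its brightest. Th, the enzyme that starts catecholamine synthesis, was not counted (17.9 and 18.6).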

How the data were processed

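Total RNA of 2 Neuro2a cultures (siCPEB1 and siControl) was hybridized to 1 Affymetrix array each. The submitters' processing notes name MAS5 and Affymetrix Expression Console without versions. The deposited values are the intensity of each probe set, linear and not log-transformed, after the background subtraction and whole-array scaling that MAS5 performs. To what level the authors scaled was not given in the sources. With 1 array a condition, the number of arrays limits the precision and no test was run.

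For 45037 probe sets (64 control probe sets left out), siCPEB1 was divided by siControl on the log2 scale and the difference of the array medians was removed. A call was a ratio past 2-fold in a probe set that passed the signal filter. Gene names are those of the platform's annotation, brought up to date by gene identifier with RefSeq of GRCm38.p6. Of the probe sets, 34945 have 1 symbol, 932 several and 9160 none, and none with several was used. For a gene, the probe set was by preference not an _x_at or _s_at one and otherwise the brightest counted. Named with all values were members with a counted probe set past 2-fold, and of the other pathway genes those past 2-fold. The members and lists were chosen with earlier results of these data known. Promoter sequences are those given with RefSeq starts and were at hand for 34 of the 47 members. Alternatives were 4 other scalings, 16 added to both signals, 3 other filters, 2 other choices of probe set and 1.5-fold. The steps were tested on simulated data. Computation was in Python 3.11.15 with pandas 2.3.3 and numpy 2.4.6, loess in statsmodels 0.14.6, and plots in matplotlib 3.10.9.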

Additional observations from a re-analysis of the deposited data

How the results depend on the processing

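Signal filters changed the counts and scalings did not. Against 6 higher and 2 lower of 36 member genes, 3 of 32 were higher with the median required in both arrays (Tgfb3, Bambi and Id4). With that filter 1 was lower (Tgfbi), and 2.69% of all genes were higher and 3.17% lower. With the 75th percentile required in at least 1 array, 2 of 22 member genes were higher (Bambi and Id4), beside 2.29% of all genes. With this filter 1 member gene was lower, beside 3.42% of all genes. With no filter 10 were higher, the 4 added being Bmp2, Bmp6, Ltbp1 and Grem1, all below the array medians, while the share of all genes that was higher was 12.4% with no filter and 4.56% with it. With 16 added to both signals, Tgfb3 came within 2-fold at a log2 ratio of 0.84 and Bmp7 at -0.90. This left 5 of 36 member genes higher, beside 2.36% of all genes, and 1 lower, beside 2.2%. The log2 ratios of Bmp5, Bmpr1b and Inhbb were then 1.65, 1.44 and 1.16. The median log2 ratio of 0.16 was 0.079 with the median in both arrays and 0.035 with the 75th percentile, and otherwise lay between 0.10 and 0.22. Past 1.5-fold, 8 were higher and 3 were lower (22.2% and 8.33%, beside 11.9% and 12.1% of all genes). Over the 10 members with a counted probe set past 2-fold, all 91 values under the alternatives kept the sign. Bmp5, Bmp7, Inhbb and Bmpr1b have no value with the median in both arrays or with the 75th percentile. Tgfb3 has none with the 75th percentile. The 10 genes were picked by their ratios on these same 2 arrays, so a kept sign says little. The ratio of Bambi ranged from 1.89 to 2.00, that of Id4 from 1.21 to 1.28 and that of Tgfbi from -1.81 to -1.44. With 1 array a condition, no replicate could be left out. No paired analysis was possible because each condition has 1 array and no test was run.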
